A study of Mus musculus with 12 samples.

Results

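Resident-like macrophages and early CMDMs (classical monocyte-derived macrophages) were compared across all genes in 6 of the 12 bulk RNA-seq libraries of the study, 3 per fraction. The members were chosen by their labels alone, as the libraries whose cell subtype is Resident-like (Ly6CloPD-L2lo) or Early CMDM (Ly6ChiPD-L2hi). All libraries came from ear skin of WT BALB/c mice with IgE-CAI, a model of skin allergy, on day 5. The mice had received 300 μg of anti-TNP IgE intravenously and, a day later, 10 μg of TNP-conjugated ovalbumin into the right ear. CD45+CD11b+SiglecF-Ly6G- cells were sorted by Ly6C and PD-L2, and the other fractions, also with 3 libraries each, were Ly6CloPD-L2hi late CMDMs and Ly6ChiPD-L2lo classical monocytes. The labels do not state whether the 3 libraries of a fraction came from separate animals, so that the p-values measure the spread between these libraries only. In such bulk libraries a smaller number of cells of a type and less RNA per cell cannot be told apart.

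In inflamed skin, classical monocytes leave the blood and become macrophages, while other macrophages and antigen-presenting cells live in the tissue before inflammation. Ly6C marks recently arrived monocytes and is lost as they mature. PD-L2 is a ligand of the inhibitory receptor PD-1 and is induced by IL-4. A gate that is low for both markers and positive for CD11b can also take in dendritic cells, including Langerhans cells of the epidermis, which share CD11b with macrophages and present antigen on MHC class II.

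The genes behind the gate followed the sort. *Ly6c2* (chromosome 15, 75108158 to 75111970 of GRCm38), which encodes Ly6C, had 15.9, 18.9 and 17.8 CPM in the resident-like libraries and 53.6, 44.1 and 50.2 CPM in the early CMDM libraries, where CPM are counts scaled to a common library size after TMM normalization. *Pdcd1lg2*, which encodes PD-L2, was at 11.6, 8.49 and 8.65 CPM in the first and 21.3, 20.05 and 22.7 CPM in the second. Both genes were lower in resident-like macrophages with no overlap between libraries, by log2 fold changes of -1.49 (standard error 0.16, Benjamini-Hochberg adjusted p = 1.14e-06 in the quasi-likelihood test of edgeR) and -1.15 (standard error 0.14, adjusted p = 3.6e-06). In every early CMDM library *Ly6c2* was still far below classical monocytes, which had 492 ± 113 CPM. *Ccr2*, the chemokine receptor with which monocytes enter tissue, went the other way, with 427, 432 and 457 CPM against 119.7, 101.2 and 165 CPM in early CMDMs, and so differed by 1.77 in log2 units (standard error 0.15, adjusted p = 1.14e-07). Classical monocytes had 390.5 ± 54.2 CPM of *Ccr2* and late CMDMs 107 ± 7.93 CPM, so that the resident-like mean of 439 ± 15.8 CPM was the highest. In its single-cell data, by contrast, the paper described the resident-like cluster as low in *Ccr2* and the early and late CMDM clusters as high. Dendritic cells formed separate clusters there. The paper also scored its clusters with genes of these bulk fractions, and the resident-like cluster scored highest for the Ly6CloPD-L2lo genes. The name resident-like is used here as the label of the sorted fraction. *Adgre1*, which encodes the macrophage marker F4/80, had 199, 179 and 169.8 CPM against 84.5, 70.1 and 106 CPM, and *Fcgr1*, which encodes CD64, had 55.2, 52.2 and 62.3 CPM against 52.8, 34.3 and 63.6 CPM and was not called. Among genes for the markers gated out, *Ly6g* had 0 counts in all 6 libraries, which allows up to 0.151 to 0.195 CPM, and *Siglecf* had 37 to 44 counts in each resident-like library against 2 to 3 in each early CMDM library.

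The early CMDM libraries carried more RNA of epidermal and dermal cells than the resident-like libraries. The summed CPM of 22 keratinocyte genes was 33342, 38716 and 24483 in the early CMDM libraries and 3301, 3790.5 and 3447 in the resident-like libraries. The summed CPM of 14 fibroblast genes was 5931, 5928 and 4334 and 415, 541 and 613. A further list of 10 genes was taken as leukocyte genes, labelled all leukocytes in the figures (*Ptprc*, *Tyrobp*, *Fcer1g*, *Laptm5*, *Coro1a*, *Lcp1*, *Itgb2*, *Spi1*, *Cd53* and *Arhgdib*). That every type of leukocyte expresses each of them was not examined. Their sum was 2059.8, 1741 and 2883 in early CMDMs and 5718, 5935 and 5755 in resident-like macrophages. The 10 genes did not move alike, with TMM log2 fold changes (resident-like minus early CMDM) from 0.77 to 2.16. Among the early CMDM libraries, replicate 3 had the highest leukocyte sum and the lowest keratinocyte sum, and replicate 2 the reverse. In the late CMDM and classical monocyte libraries the keratinocyte sum averaged 5052 and 4108 CPM, below every early CMDM library. The fibroblast sum averaged 792 CPM in late CMDMs and 6372 CPM in classical monocytes, the latter above the early CMDM mean. The part of this RNA in the results was not tested, but a second scale is given beside TMM, in which each library is scaled to the summed counts of the 10 leukocyte genes instead of by TMM. This leukocyte-gene scale lowers the whole distribution: the median log2 fold change of all genes, resident-like minus early CMDM, was 0.03 with TMM and -1.40 on the leukocyte-gene scale. A gene that is higher in resident-like macrophages on both scales is higher after TMM and relative to the summed counts of these 10 genes. On the scale set by their sum, 2 of the 10 genes were still called higher and 1 lower.

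**Figure D1:**
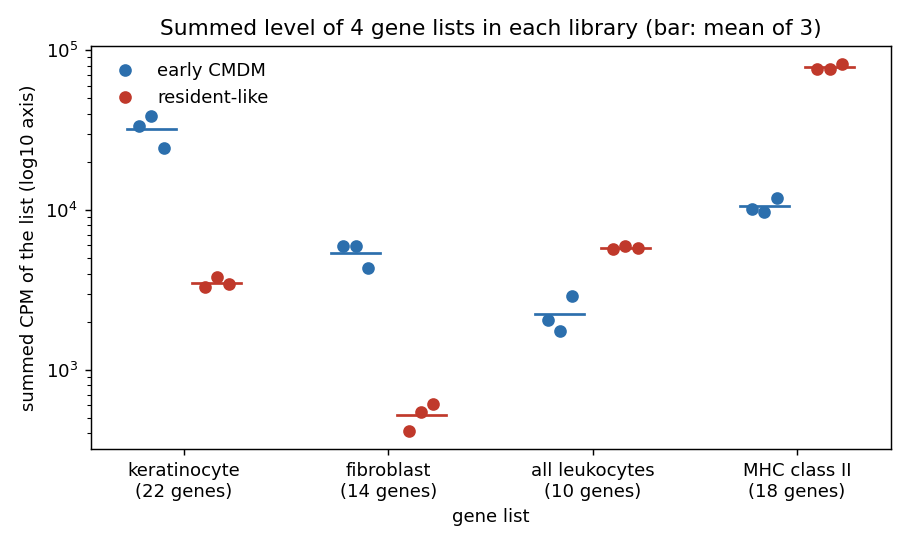
Summed CPM of 4 gene lists in each of the 6 libraries (points, log10 axis), with a bar at the mean of each fraction. The keratinocyte sum lies between 24483 and 38716 CPM in early CMDMs and between 3301 and 3790.5 CPM in resident-like macrophages, while the MHC class II and leukocyte sums are higher in every resident-like library.

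Of the 22118 genes tested, 10297 (46.6%) were called at an adjusted p under 0.05, 4736 (21.4%) higher and 5561 (25.1%) lower in resident-like macrophages. Of these, 1682 were higher and 3001 lower by at least 1 on the log2 scale. The split depended on the scaling: 46.0% of the calls were higher with TMM, 31.5% with library size only (3261 higher, 7081 lower) and 1.99% on the leukocyte-gene scale, where 385 genes (1.74%) were higher and 18993 (85.9%) lower. The 385 genes higher on that scale were also called higher with TMM. All 5561 genes lower with TMM were also called lower on the leukocyte-gene scale, and 2757 genes higher with TMM were called lower there. These overlaps follow from the rescaling, which lowers all genes by similar amounts, and are no separate support. A call of higher on both scales therefore mostly marks a larger TMM fold change. Some lists below have genes in common, such as *Mgl2* and *Ltc4s*, so that their counts are not independent. The counts of each list stand against the shares of all genes given above. Libraries that do not overlap are common as well, since every resident-like library was above every early CMDM library for 5946 genes (26.9%) and below for 6408 (29.0%), so that a lack of overlap sets no gene apart.

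**Figure D2:**
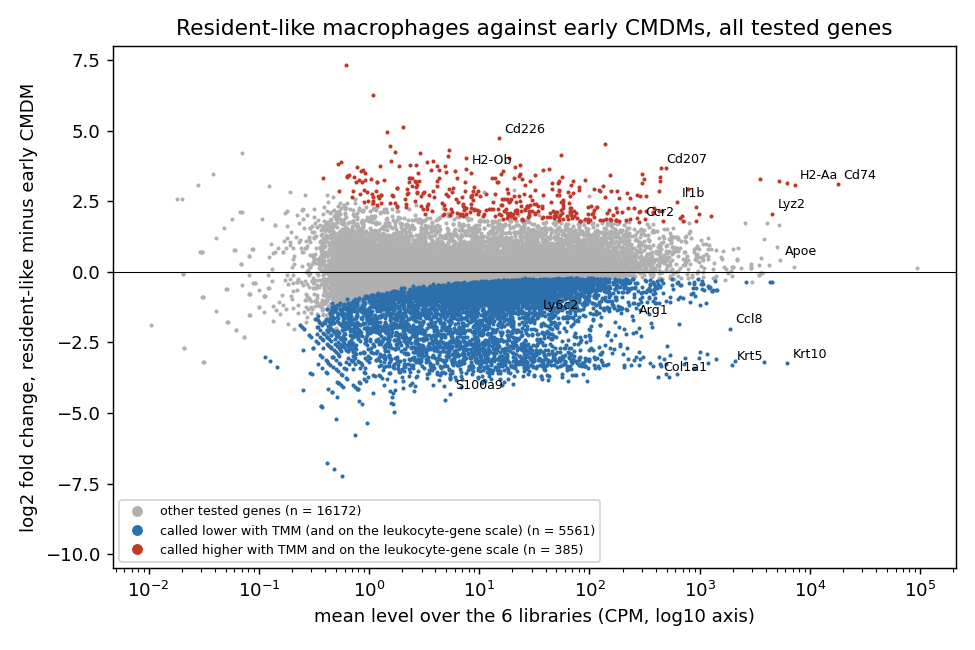
Log2 fold change (resident-like minus early CMDM, TMM) of the 22118 tested genes against their mean level over the 6 libraries (CPM, log10 axis). Genes called higher on both scales are red and those called lower with TMM are blue. Cd74, H2-Aa, H2-Ob, Cd207, Cd226, Lyz2, Il1b and Ccr2 are named among the red points, and Krt10, Krt5, Col1a1, S100a9, Ccl8, Arg1 and Ly6c2 among the blue.

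Genes for antigen presentation on MHC class II rose together in resident-like macrophages. MHC class II molecules display peptides to CD4 T cells, are built around the invariant chain (Cd74), are loaded by H2-DM and tuned by H2-DO, and are transcribed under the coactivator CIITA together with RFX and NF-Y, which bind X and Y boxes shortly before the start sites of these genes. Of 18 genes of the list, 14 were called higher, beside 21.4% of all genes tested, and 0 lower, with a median log2 fold change of 3.05 beside 0.03 for all genes, and on the leukocyte-gene scale 11 were still called higher and 6 lower, with a median of 1.62. The Y box contains the letters ATTGG and the X box of some promoters the letters AGCAAC. The stretches below are shown because they hold ATTGG, and in 3 genes also AGCAAC, shortly before the start sites of genes that were all called higher. They are 60 bases each, read on the strand of the gene, from RefSeq promoters of GRCm38.p6 (250 bases before to 50 after the start site), and capitals mark ATTGG and, where present, AGCAAC.
H2-Aa, chr17:34287857-34287916, minus strand: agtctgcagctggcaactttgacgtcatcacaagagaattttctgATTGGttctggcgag
H2-Eb1, chr17:34305763-34305822, plus strand: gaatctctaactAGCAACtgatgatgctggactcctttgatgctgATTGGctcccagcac
H2-DMb1, chr17:34153085-34153144, plus strand: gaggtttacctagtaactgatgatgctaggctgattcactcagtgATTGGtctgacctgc
H2-DMb2, chr17:34145114-34145173, plus strand: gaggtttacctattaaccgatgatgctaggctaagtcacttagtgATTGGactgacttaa
H2-Oa, chr17:34092291-34092350, plus strand: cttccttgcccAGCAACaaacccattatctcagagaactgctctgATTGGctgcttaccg
H2-Ob, chr17:34238803-34238862, plus strand: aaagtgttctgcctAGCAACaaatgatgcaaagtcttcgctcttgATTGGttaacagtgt
Of the 18 genes, 12 had a promoter in the table. ATTGG began 40 to 100 bases before the start site, on the strand of the gene, in 8 of these 12 genes. These were the 6 above, *Rfxank* and *Lgmn*, of which the last 2 were not called. The same held for 7.71% of the 32851 promoters in the table, a share of promoters and not of genes, since the 12 genes had 14 promoters. This window was set after the positions had been seen. Over the whole promoter and both strands, 37.4% of all promoters held ATTGG and 14.8% held AGCAAC. The 2 motifs do not overlap in the 3 stretches that hold both, where 27 (H2-Eb1), 28 (H2-Oa) and 25 (H2-Ob) bases lie between them. These matches describe letters and not binding.

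The classical class II chains differed by similar factors. *H2-Aa* had 12318, 12776 and 14054 CPM in the resident-like libraries and 1445, 1495 and 1652 CPM in the early CMDM libraries, an 8.53-fold difference (log2 fold change 3.09, standard error 0.15, adjusted p = 6.41e-10). Its partner *H2-Ab1* had 10863, 10842 and 11747 CPM and 1188, 1235 and 1380.3 CPM, and *H2-Eb1* had 6518, 6308 and 6471 CPM and 619, 656 and 711 CPM. The lowest resident-like library lay above the highest early CMDM library for each of these chains, and the log2 fold changes of *H2-Ab1*, *H2-Ea* and *H2-Eb1* were 3.14, 3.23 and 3.28. Late CMDMs had 1801 ± 271 CPM and classical monocytes 4705 ± 816 CPM of *H2-Aa*, so that the resident-like fraction was the highest of the 4. *Cd74*, the invariant chain, had 32647, 31606 and 33149.6 CPM against 3639.6, 3619.6 and 4015 CPM, that is 8.64-fold.

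The accessory genes were split between those that rose like the chains and those that did not. *H2-DMb1*, a chain of the peptide-loading molecule, had 712, 814 and 833 CPM in resident-like macrophages against 75.8, 76.8 and 79.8 CPM in early CMDMs (10.2-fold, adjusted p = 9.1e-11). *H2-DMa* and *H2-DMb2* differed by 7.35-fold and 9.78-fold. *H2-DMb1* and *H2-DMb2* are near-identical copies, between which the counting could split reads. *H2-Oa* and *H2-Ob*, which encode the H2-DO molecule that restrains loading, were at low levels in early CMDMs, with 10 to 17 and 16 to 21 counts per library, and rose 9.94-fold and 12.4-fold. *Ciita*, the coactivator, had 143, 147 and 139 CPM against 18.4, 16.4 and 18.6 CPM, 8.02-fold (standard error of the log2 fold change 0.14, adjusted p = 5.51e-10). The RFX subunits *Rfx5*, *Rfxap* and *Rfxank* did not pass the test, with log2 fold changes of 0.09, -0.15 and 0.20. On the leukocyte-gene scale the 3 were lower, at -1.34, -1.58 and -1.21. Enzymes that trim the invariant chain and prepare peptides moved less: cathepsin S (*Ctss*) and the thiol reductase *Ifi30* had TMM log2 fold changes of 0.81 and 0.87, which turned to -0.56 and -0.50 on the leukocyte-gene scale. Genes for presentation on MHC class I, which all nucleated cells use, had a median of 0.48 over 12 genes, with 8 called higher and 0 lower, and a median of -0.95 on the leukocyte-gene scale with 12 lower.

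**Figure D3:**
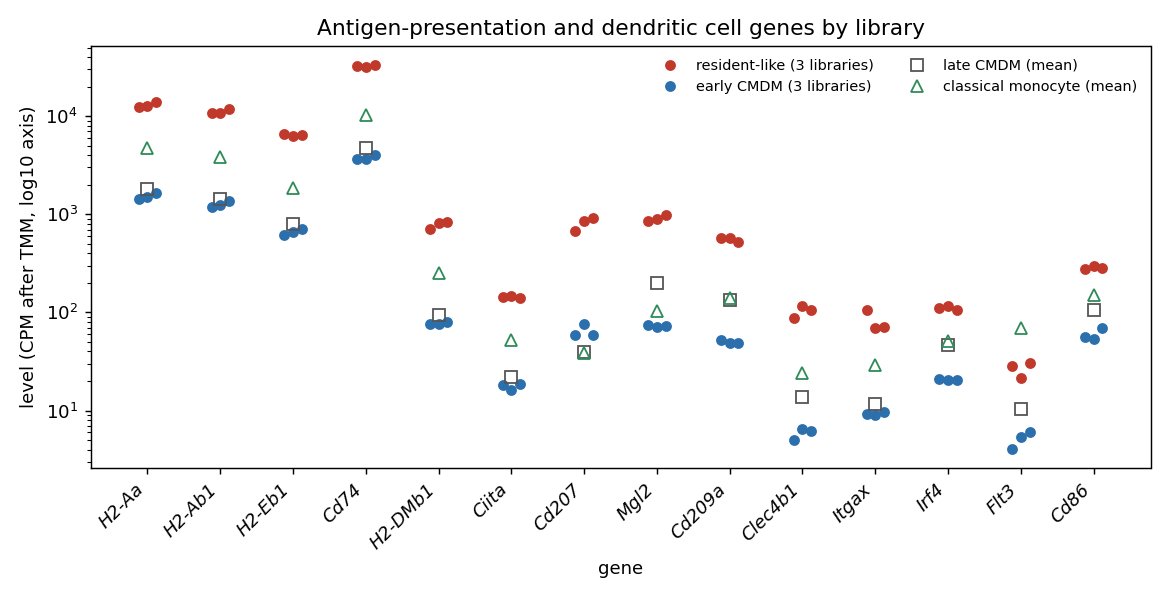
CPM of 14 antigen-presentation and dendritic cell genes in each library (log10 axis; red, resident-like; blue, early CMDM; late CMDM and classical monocyte means as open symbols). The 3 resident-like points lie above the 3 early CMDM points for every gene plotted.

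Genes of dendritic cells and Langerhans cells were higher in the resident-like fraction. Of 20 dendritic cell genes, 16 were called higher and 1 lower, with a median log2 fold change of 1.60, and 8 stayed higher on the leukocyte-gene scale (median 0.18, 7 lower). Dendritic cells depend on FLT3 ligand and use CD11c (*Itgax*) and ZBTB46 as lineage markers, and the CD11b+ type relies on IRF4. *Itgax* had 106, 69.8 and 71.1 CPM in resident-like macrophages against 9.22, 9.11 and 9.56 CPM in early CMDMs, and *Flt3* had 28.4, 21.7 and 30.8 CPM and 4.08, 5.44 and 6.01 CPM. *Irf4* had 111, 116 and 107 CPM and 20.8, 20.4 and 20.3 CPM. For these 3 genes the groups did not overlap, the folds were 8.86, 5.21 and 5.41, and the log2 fold changes on the leukocyte-gene scale were 1.72, 0.97 and 0.997. *Batf3*, a factor of cross-presenting dendritic cells, rose 3.93-fold, while *Xcr1*, which marks those cells, was at 4.23 ± 0.498 CPM in the resident-like fraction and 3.37 ± 0.360 CPM in early CMDMs and was not called. *Zbtb46* rose 3.83-fold with TMM (adjusted p = 5.38e-07) and was not called on the leukocyte-gene scale (adjusted p = 0.0633).

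*Cd207*, which encodes langerin, the lectin of Birbeck granules in Langerhans cells, had 679, 859 and 919.6 CPM in the resident-like libraries and 58.7, 75.9 and 58.4 CPM in the early CMDM libraries. It rose 12.7-fold (log2 fold change 3.67, standard error 0.18, adjusted p = 6.89e-10) and lay at 39.2 ± 3.19 CPM in late CMDMs and 38.2 ± 9.40 CPM in classical monocytes. Of the 12 genes of the Langerhans cell list, 8 were called higher and 2 lower, with a median of 1.05, and on the leukocyte-gene scale 3 were higher and 6 lower (median -0.36). The 3 higher on both scales were *Cd207*, *Mfge8*, which bridges phagocytes to dying cells (9.18-fold), and *Hpgds*, the prostaglandin D2 synthase of these cells (4.93-fold). The adhesion gene *Cdh1*, which keratinocytes also express, was lower, with a log2 fold change of -1.32. Another member of the list fell further, to -3.02, the lowest value of the list. *Epcam* had 182, 238 and 236 CPM and 149, 175 and 120.1 CPM, groups that do not overlap, and was called with TMM (log2 fold change 0.56, adjusted p = 0.0474) but turned to -0.92 on the leukocyte-gene scale. It was no longer called without resident-like replicate 2 or 3 (0.50 and 0.50) or without early CMDM replicate 1 or 3 (0.57 and 0.44). The call was also lost with RLE size factors (adjusted p = 0.0512), with TMM recomputed without called genes (0.1), with library size only (0.165) and with no filter (0.164). Of 15 genes of migrating dendritic cells, 8 were called higher and 2 lower with TMM (median 1.12). On the leukocyte-gene scale 6 were lower (median -0.29), and 5 were higher on both scales. Among these, *Ccr7*, the receptor that guides cells to the lymph node, rose 4.19-fold from 7.31 ± 1.65 to 30.6 ± 4.52 CPM, *Ly75*, which encodes the uptake receptor DEC-205, rose 10.5-fold and *Ccl22*, a ligand of CCR4, rose 5.59-fold. *Fscn1*, an actin-bundling gene of the mature state, had 5.93, 14.7 and 6.003 CPM against 10.4, 8.85 and 8.55 CPM, which overlap, and was not called, except at a log2 fold change of -0.63 without resident-like replicate 2.

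C-type lectins, receptors for sugars on microbes and on host cells, gave 21 genes higher and 0 lower of 24 (median log2 fold change 1.91), of which 12 stayed higher on the leukocyte-gene scale (median 0.51). *Clec4b1* had 88.1, 117 and 105 CPM in the resident-like libraries and 5.01, 6.45 and 6.14 CPM in the early CMDM libraries, a 17.6-fold difference. *Mgl2*, a galactose lectin of dermal dendritic cells and macrophages, had 860.3, 906 and 989 CPM and 74.04, 70.8 and 72.5 CPM, 12.7-fold. *Cd209a*, the mouse DC-SIGN gene of monocyte-derived and CD11b+ dendritic cells, had 573, 570.0 and 523 CPM and 51.8, 49.4 and 49.3 CPM, 11.1-fold. No library of one fraction reached those of the other for any of the 3. The adjusted p-values were 1.77e-08, 2.51e-10 and 7.17e-09, and the log2 fold changes on the leukocyte-gene scale were 2.71, 2.22 and 2.03. *Clec10a*, next to *Mgl2* in sequence and able to share reads with it, rose 3.41-fold with TMM and was not called on the leukocyte-gene scale (0.33). Receptors that sense glycolipids and fungal cell walls, *Clec4e* and *Clec4n*, rose 3.59-fold and 4.83-fold, and the inhibitory *Clec12a* rose 6.48-fold. *Mrc1*, the mannose receptor, had 802, 757 and 699.7 CPM against 465, 415 and 668 CPM, which do not overlap, but its TMM log2 fold change of 0.54 turned to -0.84 on the leukocyte-gene scale. It was no longer called without resident-like replicate 1 or 2 (0.50 and 0.54) or early CMDM replicate 1 or 2 (0.47 and 0.41), nor with library size only (adjusted p = 0.0927) or no filter (adjusted p = 0.109).

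Genes through which antigen-presenting cells speak to T cells rose in the same libraries. Of 14 costimulation genes, 11 were called higher and 1 lower (median 1.64), and 5 were higher on both scales (median 0.22 on the leukocyte-gene scale). The CD28 ligands *Cd80* and *Cd86* had 47.5, 45.6 and 42.3 and 280.4, 296 and 284 CPM in resident-like macrophages. In early CMDMs they had 8.84, 7.46 and 10.3 and 56.4, 53.8 and 70.2 CPM. Every resident-like library was above every early CMDM library, with folds of 5.09 and 4.77 (adjusted p = 2.12e-09 and 4.42e-09). *Tnfsf9*, the ligand of 4-1BB, rose 4.35-fold, *Slamf7* 5.76-fold and *Havcr2*, which encodes TIM-3, 5.49-fold. *Pdcd1lg2* was the member that was lower, and *Cd274*, which encodes the other PD-1 ligand, PD-L1, had 70.2, 63.8 and 55.4 CPM against 49.8, 41.7 and 61.6 CPM, which overlap, and was not called (log2 fold change 0.31, adjusted p = 0.138). Without early CMDM replicate 3 *Cd274* was called higher, at 0.47 (adjusted p = 0.0348).

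Chemokine and growth factor receptors were mostly higher. Of 20 chemokine receptors and related genes tested, 12 were called higher and 2 lower, with a median of 0.97, and 6 were higher on both scales. Besides *Ccr2* and *Ccr7* these were *Cx3cr1*, the fractalkine receptor of patrolling and resident cells, at 48.2, 25.7 and 33.5 CPM against 6.87, 4.43 and 5.38 CPM, *Gpr183*, the oxysterol receptor that positions dendritic cells (4.76-fold), *Ccr6* (10.1-fold) and *Ccr3* (5.09-fold). *Ccr6* and *Ccr3* were close to the counting limit in early CMDMs, with 4 to 8 and 14 to 23 counts per library. *Ackr3*, a scavenging receptor, was lower, at 5.22 ± 1.28 CPM against 41.01 ± 5.93 CPM. Of 26 growth factor and cytokine receptors, 20 were called higher and 0 lower (median 0.87), but the median turned to -0.52 on the leukocyte-gene scale, where 4 were higher and 15 lower. The 4 were *Flt3*, *Kit*, *Csf2ra*, the GM-CSF receptor chain (358, 384 and 372 CPM against 73.7, 70.2 and 91.05 CPM), and *Il1r2*, the decoy receptor for IL-1 (447, 616 and 648 CPM against 95.2, 96.2 and 71.5 CPM). For the last 2 the groups were far apart, 4.74-fold and 6.51-fold. *Csf1r*, the receptor macrophages need to survive, had 811, 681 and 682 CPM against 385, 291 and 498 CPM and a TMM log2 fold change of 0.89, which turned to -0.49 on the leukocyte-gene scale.

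Among secreted signals, 9 of 22 cytokine genes were called higher and 6 lower (median 0.80, and -0.60 on the leukocyte-gene scale), and 4 were higher on both scales. *Il1b* had 1064, 963 and 1122 CPM in resident-like macrophages against 178, 156 and 238 CPM in early CMDMs, with 1153 ± 124 CPM in classical monocytes. *Tnf* had 176, 169.8 and 164 CPM and 39.3, 35.5 and 47.8 CPM, and *Il10*, an anti-inflammatory cytokine, had 78.01, 68.1 and 90.8 CPM and 19.5, 19.5 and 21.5 CPM. The 3 genes rose by 5.51-fold, 4.16-fold and 3.92-fold with no overlap (adjusted p = 4.21e-09, 5.77e-08 and 3.03e-07). *Tnfsf13b*, which encodes the B cell survival factor BAFF, rose 8.14-fold. *Il6* and *Il23a* were lower in resident-like macrophages, at 20.9, 31.4 and 34.9 CPM against 83.7, 75.8 and 66.04 CPM and 7.87, 8.61 and 8.36 CPM against 21.2, 19.03 and 16.02 CPM, and *Il33* and *Il34*, cytokines that keratinocytes make, were lower with log2 fold changes of -2.84 and -3.12. Of 22 chemokine genes, 12 were higher and 3 lower (median 0.66), and on the leukocyte-gene scale 2 were higher and 12 lower (median -0.77). *Cxcl2*, which draws neutrophils, rose 3.89-fold and kept its direction on the leukocyte-gene scale (0.55). *Ccl8*, a chemokine of alternatively activated and resident skin macrophages, had 612, 833 and 770.2 CPM in resident-like macrophages against 2721, 2094 and 4169 CPM in early CMDMs, and was 4.06-fold higher in early CMDMs (adjusted p = 1.05e-06). Late CMDMs had 9436 ± 1454 CPM, more than either.

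Enzymes of leukotriene and prostaglandin synthesis formed another group, with 12 of 17 genes higher and 1 lower (median 0.83, and -0.58 on the leukocyte-gene scale) and 5 higher on both scales. The 5-lipoxygenase gene *Alox5* had 121, 132 and 132 CPM against 13.9, 14.4 and 13.2 CPM, and its partner *Alox5ap* had 653, 718 and 809 CPM against 189, 168 and 274 CPM. *Ltc4s*, which makes the cysteinyl leukotriene LTC4, had 76.9, 113 and 89.8 CPM against 12.2, 13.03 and 13.1 CPM. These 3 genes were higher in every resident-like library, by 9.28-fold, 3.45-fold and 7.30-fold, and *Alox15*, which oxygenates arachidonic acid at another carbon, rose 7.15-fold (log2 fold change 2.84, and 3.46 without early CMDM replicate 3). *Ptges*, the prostaglandin E synthase, was lower, at 18.1 ± 0.893 CPM against 117 ± 19.4 CPM.

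Genes of mast cells, eosinophils and red cells were higher in the resident-like libraries. The summed CPM of 13 basophil and mast cell genes was 289.9, 152 and 198 in the resident-like libraries and 36.00, 35.3 and 34.6 in the early CMDM libraries, and 11 of the 11 members tested were called higher, 6 of them also on the leukocyte-gene scale. *Tpsab1* and *Cma1*, mast cell proteases, had 51.00, 32.8 and 29.5 and 66.7, 28.03 and 45.3 CPM in resident-like macrophages, highest in replicate 1, against 4.95, 2.66 and 3.61 and 6.06, 6.83 and 3.80 CPM in early CMDMs. *Fcer1a*, the IgE-binding chain of the high-affinity receptor, had 62 to 80 counts per resident-like library and 1 to 2 per early CMDM library. The 4 eosinophil genes tested, *Siglecf*, *Ear1*, *Ccr3* and *Il5ra*, were higher with TMM, the first 3 on both scales. Hemoglobin genes were higher as well, *Hbb-bs* with 312, 695 and 393 CPM against 45.3, 85.2 and 83.8 CPM, again with a single library, replicate 2, above the others. T, NK and innate lymphoid genes were mixed, with 10 of 22 higher and 2 lower (median 0.58), and 2 higher and 14 lower on the leukocyte-gene scale (median -0.82). The summed CPM of this list went the other way, at 334, 360.1 and 344 in the resident-like libraries and 451, 497 and 394 in the early CMDM libraries. *Il7r* rose 4.86-fold and *Klrb1c* 9.35-fold, while *Cd3e* had 2.16, 4.55 and 2.30 CPM against 2.97, 3.16 and 2.72 CPM, which overlap. Neutrophil genes pointed apart: *S100a9* was lower (0.162, 0.910 and 0.471 CPM against 8.35, 14.04 and 8.67 CPM), and *Retnlg*, *Il1r2* and *Mmp9* were higher, the first at 43.9 ± 4.40 CPM against 3.21 ± 0.758 CPM. The part of such cells in the differences above was not tested.

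General macrophage genes separated the fractions less. Of 19 core macrophage genes tested, 11 were called higher and 2 lower, with a median of 0.63 that turned to -0.75 on the leukocyte-gene scale, where *Lyz2*, the lysozyme gene, was the member higher and 14 were lower. *Lyz2* had 6739, 7965 and 7226 CPM against 1802, 1530.1 and 1959 CPM. Of 20 genes of resident skin macrophages, 6 were higher and 3 lower (median 0.19, turning to -1.21 on the leukocyte-gene scale with 15 lower). *Timd4*, the phosphatidylserine receptor of long-lived resident macrophages, had 23.7, 19.4 and 29.4 CPM against 3.65, 3.29 and 3.80 CPM and rose 6.74-fold. *Lyve1* and *Folr2*, which mark perivascular resident macrophages, had 11.2, 17.5 and 17.1 and 92.4, 136 and 114 CPM in resident-like macrophages. In early CMDMs they had 11.7, 13.3 and 16.97 and 112, 78.2 and 159 CPM, so that both overlapped and were not called, and both were higher in late CMDMs (57.6 ± 20.7 and 372 ± 14.1 CPM). *Cd163*, the hemoglobin scavenger receptor, had 235, 242 and 259 CPM against 353, 308 and 538 CPM and was lower in resident-like macrophages (log2 fold change -0.70, and -0.43 without early CMDM replicate 3). *Timd4* and *Ltc4s* were the members of this list that were higher on both scales.

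Complement and matrix genes were split. Of 17 complement genes, 12 were higher and 4 lower (median 0.93, and -0.45 on the leukocyte-gene scale). The C1q chain *C1qa*, which tags debris for uptake, had 1136, 1094 and 1041 CPM against 285, 252 and 403 CPM and stayed higher on the leukocyte-gene scale (0.42, adjusted p = 0.0422), whereas *C1qb* and *C1qc*, called with TMM at 1.52 and 1.44, were not called there (0.15 and 0.07). Properdin (*Cfp*) rose 4.78-fold. *C3*, the central component, was lower, at 47.2, 41.2 and 48.2 CPM against 150.0, 116 and 126 CPM. Among 17 matrix genes, the elastase *Mmp12* and the gelatinase *Mmp9* rose 6.66-fold and 5.17-fold, and *Mmp2* and *Mmp3*, which fibroblasts make, fell by 3.41 and 3.12 on the log2 scale. Of 19 efferocytosis genes tested, 6 were higher and 4 lower (median 0.26), with log2 fold changes from -3.45 to 3.20. On the leukocyte-gene scale 3 were higher and 14 lower (median -1.14). *Mertk*, the uptake receptor, had 14.4, 9.34 and 13.1 CPM against 11.3, 6.83 and 16.8 CPM, which overlap, and its bridging ligand *Gas6* was lower, at 151, 168 and 139.6 CPM against 261, 237 and 264 CPM.

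Genes of alternative activation, the response of macrophages to IL-4, fell on both sides. Of 28 tested, 16 were called higher and 10 lower, with a median of 0.51, turning to -0.89 on the leukocyte-gene scale with 6 higher and 17 lower. *Mgl2*, *Cd209a*, *Irf4*, *Ccl22*, *Alox15* and *Ear2* were higher in resident-like macrophages on both scales. *Arg1*, which breaks down arginine, had 113, 85.5 and 154 CPM in the resident-like libraries and 320.1, 329 and 492 CPM in the early CMDM libraries, where it was 3.25-fold higher (log2 fold change -1.70, standard error 0.45, adjusted p = 0.0108). Without early CMDM replicate 3 its log2 fold change was -1.47 and it was not called (adjusted p = 0.0537). *Slc7a2*, an arginine importer, had 25.4, 16.98 and 20.8 CPM and 51.6, 50.9 and 65.3 CPM. *Cish*, a target of STAT signalling, had 38.3, 41.7 and 39.2 CPM and 104, 106 and 88.2 CPM. None of these 3 genes overlapped between the fractions, and each was lower on both scales. *Chil3* and *Chil4*, chitinase-like genes that can share reads, had log2 fold changes of -0.91 and -1.42, the first at -0.59 without resident-like replicate 2 and not called with no filter (adjusted p = 0.0606). *Retnla*, which encodes RELMα, had 533, 2272 and 770.2 CPM in the resident-like libraries against 470.1, 411 and 439.9 CPM in early CMDMs. Its log2 fold change of 1.44 (adjusted p = 0.0267) fell to 0.57 (adjusted p = 0.0738) without resident-like replicate 2, the highest, and it was also not called without early CMDM replicate 1, 2 or 3, with the 6 libraries alone or with no filter.

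**Figure D4:**
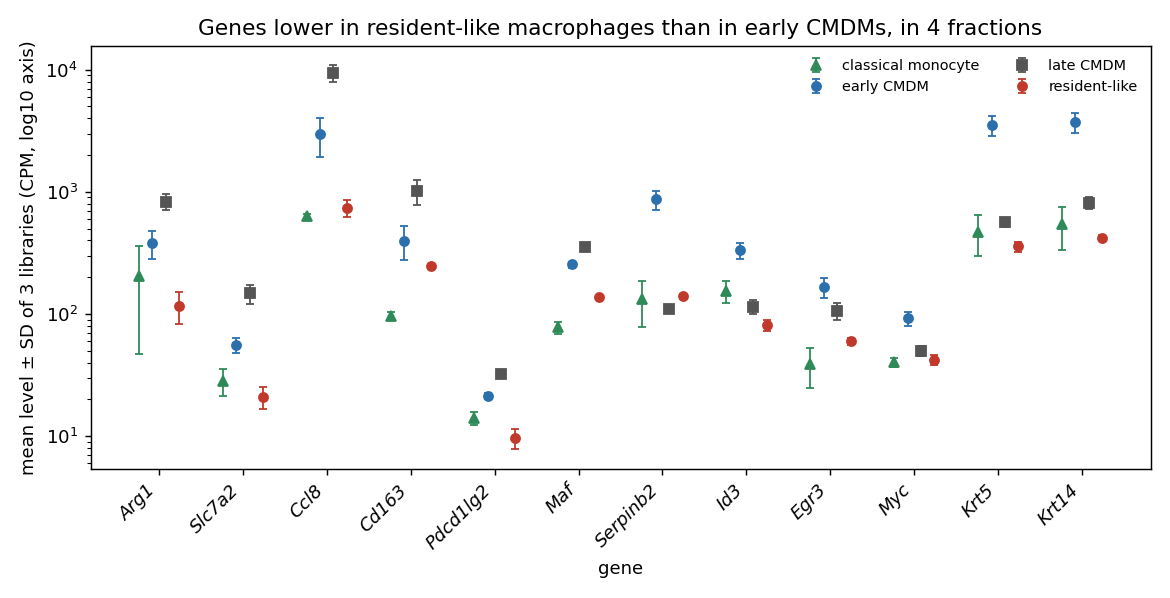
Mean CPM (bars at the SD over 3 libraries, log10 axis) of 12 genes lower in resident-like macrophages than in early CMDMs, in the 4 fractions. Arg1, Slc7a2, Ccl8, Cd163, Pdcd1lg2 and Maf are highest in late CMDMs, whereas Serpinb2, Id3, Egr3, Myc, Krt5 and Krt14 are highest in early CMDMs.

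The genes higher in early CMDMs differed in where else they were high. *Arg1*, *Slc7a2*, *Ccl8* and *Cd163* had still higher levels in late CMDMs, at 833 ± 125, 147 ± 25.6, 9436 ± 1454 and 1015 ± 229 CPM, and lower levels in classical monocytes, at 205 ± 158, 28.4 ± 7.06, 635 ± 20.9 and 96.8 ± 7.91 CPM. The same order held for the transcription factor *Maf*, with 134, 140.5 and 137 CPM in the resident-like libraries, 258, 239 and 267 CPM in early CMDMs and a level of 356 ± 17.2 CPM in late CMDMs. In contrast, *Serpinb2*, an inhibitor of plasminogen activators, had 132, 145 and 143 CPM in the resident-like libraries, 897, 1008 and 695 CPM in early CMDMs and a level of 111 ± 4.73 CPM in late CMDMs. *Id3*, an inhibitor of E proteins, had 73.96, 79.6 and 89.9 CPM and 346, 376 and 278 CPM, and 115 ± 14.4 CPM in late CMDMs. *Egr3* and *Myc*, early response genes, had 162, 201 and 139 and 93.9, 104 and 78.8 CPM in early CMDMs and 64.2, 57.99 and 57.1 and 37.4, 45.5 and 43.6 CPM in resident-like macrophages. Within the early CMDM libraries, *Serpinb2*, *Id3*, *Egr3* and *Myc* were highest in replicate 2 and lowest in replicate 3, as the keratinocyte sum was, while *Ccl8*, *Arg1* and *Cd163* were highest in replicate 3, which had the highest leukocyte sum. Whether RNA of keratinocytes carried the first group was not tested. Of 36 transcription factors tested, 18 were higher and 8 lower with TMM (median 0.39, turning to -1.02), and *Irf4*, *Batf3* and *Nr4a3* were higher on both scales.

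Metabolic genes moved by small amounts. Of 33 genes of the respiratory chain and ATP synthase, 1 was higher and 20 were lower in resident-like macrophages, beside 25.1% of all genes lower, with a median of -0.33. On the leukocyte-gene scale all 33 were lower, as were 85.9% of all genes. *Ndufa1*, a complex I subunit, had 14.9, 29.1 and 21.2 CPM against 43.98, 46.2 and 61.7 CPM, and *Cox7a2*, a complex IV subunit, had 36.1, 57.1 and 43.6 CPM against 82.9, 100.1 and 87.2 CPM. Late CMDMs had 88.2 ± 11.8 and 89.9 ± 0.825 CPM, and classical monocytes 22.98 ± 2.52 and 46.7 ± 5.82 CPM. Of 35 lysosomal genes, 20 were higher and 2 lower with TMM (median 0.52), turning to 0 higher and 32 lower on the leukocyte-gene scale (median -0.90), where 85.9% of all genes were lower. Lists for glycolysis, interferon-stimulated genes and the cell cycle had TMM medians of 0.06, 0.05 and 0.05, near that of all genes, and medians of -1.37, -1.40 and -1.42 on the leukocyte-gene scale. *Mki67*, a marker of dividing cells, had 206, 167 and 178 CPM against 105, 88.02 and 116 CPM, and *Top2a*, another, had 27.9, 25.8 and 28.4 CPM against 30.99, 30.8 and 26.1 CPM and was not called.

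**Figure D5:**
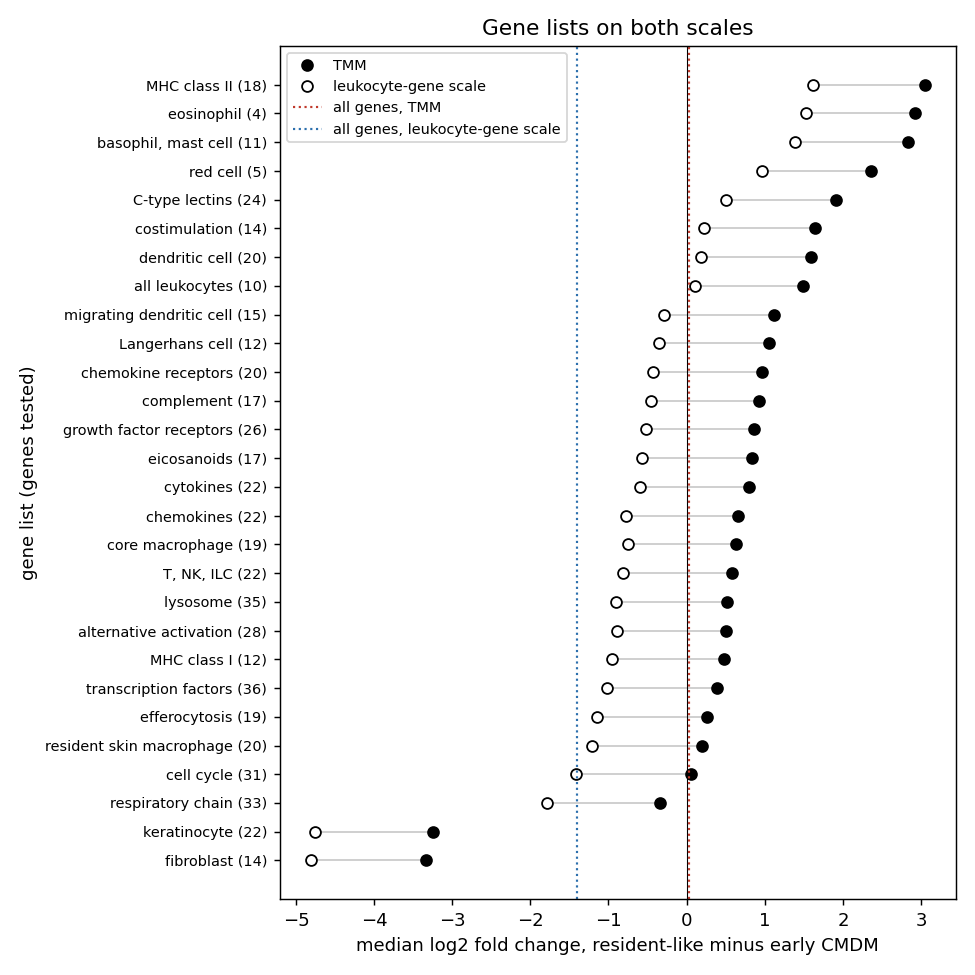
Median log2 fold change (resident-like minus early CMDM) of 28 gene lists with TMM (filled) and on the leukocyte-gene scale (open), with dotted lines at the medians of all tested genes (0.03 and -1.40). MHC class II, C-type lectin, mast cell, eosinophil, red cell, dendritic cell and costimulation lists lie to the right of 0 on both scales (the all-leukocyte list sets the second scale and lies near 0 on it by construction), and keratinocyte, fibroblast and respiratory chain lists to the left on both.

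The genes with the largest differences were in part members of these groups. Of the 12 genes with the largest rise, chosen as called genes of at least 10 CPM whose libraries did not overlap, *Clec4b1*, *Cd207*, *Mgl2*, *H2-Ob* and *Retnlg* are described above. *Cd226*, which encodes the adhesion receptor DNAM-1, had 26.8, 35.3 and 24.8 CPM against 1.11, 0.885 and 1.27 CPM, 26.4-fold, the largest rise of the 12. *Klrb1b* and *Slamf9* rose 16.2-fold and 12.6-fold. *Hepacam2*, *P2rx2*, an ATP-gated channel, and *Rtn1* rose 16.2-fold, 13.1-fold and 11.8-fold, and had 4.53 ± 0.502, 2.21 ± 0.857 and 3.13 ± 0.114 CPM in classical monocytes. *Mucl1* rose 23.1-fold but was uneven, with 129, 443 and 216 CPM in the resident-like libraries (log2 fold change 4.53, and 3.93 without resident-like replicate 2). Of the 12 genes with the largest fall, *Krt77*, *Krt78*, *Cnfn* and *Alox12b* act in the epidermal barrier, and *S100a9*, with 135 to 222 counts per early CMDM library, fell most, by 4.34 on the log2 scale and to -5.03 without resident-like replicate 2. The others were *Dlk2*, *Slc5a1*, *Cpxm1*, *Fam25c*, *Fzd10*, *Tmprss4* and *Gprin2*, with log2 fold changes from -4.09 to -3.84. Among genes that differed by at least 1 on the log2 scale, those with the highest CPM, a ranking that is not per length, were *Cd74*, *H2-Aa*, *H2-Ab1*, *H2-Ea*, *Tmsb4x*, *Lyz2*, *Vim* and *Ftl1* in one direction and *Krt10*, *Krt2*, *Krt14*, *Krt5*, *Ccl8*, *Perp*, *Dsp* and *Ly6d* in the other. *Krt10*, a keratin of the upper epidermis, had 1119, 1337 and 1117 CPM in resident-like macrophages against 11677, 13873 and 8202 CPM in early CMDMs. All 22 keratinocyte genes and all 14 fibroblast genes were called lower in resident-like macrophages on both scales, with TMM medians of -3.25 and -3.34, and *Col1a1* had 49.7, 64.2 and 63.6 CPM against 824, 904 and 610.1 CPM. *Tmsb4x*, *Vim* and *Ftl1*, called higher with TMM at 1.65, 1.72 and 1.18, were not called on the leukocyte-gene scale (0.24, 0.29 and -0.22).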

How the data were processed

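Bulk RNA-seq libraries of 4 fractions of CD11b+ cells from inflamed mouse ear skin were used, 3 per fraction. Per the study's methods, the authors trimmed reads with cutadapt 4.1, mapped them to reference RNA of GRCm38 with Bowtie2 2.4.5 on 1 strand, and deposited whole-number counts per gene symbol without normalization. Reads that match several transcripts can therefore be split between similar genes. Total counts were 18113334 to 19844113 in resident-like and 15396187 to 15487385 in early CMDM libraries, where 3 counts equal 0.151 to 0.195 CPM, a limit that covers counting error only. No pair of replicates agreed within sampling noise.

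Counts were fitted with edgeR 4.0.16 in R 4.3.3 (TMM, filterByExpr by fraction, robust quasi-likelihood), with all 12 libraries and 1 coefficient per fraction. Of 37775 genes, 22118 were tested, and genes at a Benjamini-Hochberg adjusted p under 0.05 were called. Standard errors come from the fold change and its F statistic, and values after ± are SDs over 3 libraries. On the leukocyte-gene scale, the summed counts of 10 leukocyte genes replaced the TMM library sizes. The fit was tested on simulated data in which few genes changed, as many up as down. The effect of the scaling was therefore not tested there. Positions come from GENCODE M21 and promoters from RefSeq. Besides the 42 gene lists, the 12 called genes of at least 10 CPM with the largest change and no overlap, and the 8 with the highest CPM at a log2 fold change of at least 1, were named in each direction. The members, the lists and the leukocyte-gene scale were chosen with earlier results of these data known. Alternatives were DESeq2 1.42.0, other scalings, filters and thresholds, the replicate block, the 6 libraries alone and leaving out each library.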

Additional observations from a re-analysis of the deposited data

How the results depend on the processing

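The count of 10297 called genes was 8972 to 10656 under DESeq2 (9964), RLE size factors, TMM recomputed without called genes (DEGES), unscaled library sizes, every gene kept, only genes with 10 counts in each library kept, the 6 libraries alone, a replicate block and a fit without genes over 1% of counts, and none of the genes shared with the first count changed direction there. Leaving out 1 library gave 8717 to 9730 called genes, 3848 to 4427 higher and 4865 to 5303 lower. With the replicate number as a block, 10656 genes were called (4936 higher and 5720 lower). Whether the replicate numbers pair the samples was not settled. Deviations of same-numbered resident-like and early CMDM libraries correlated across genes at 0.0328, 0.0748 and 0.0209, and those of other-numbered libraries at -0.0768 to 0.0467. Not every library correlated best with its own number, and 3 libraries per fraction are too few to decide it. A log2 fold change of at least 1 in size left 4683 genes, 1682 higher and 3001 lower. At an adjusted p under 0.01, 7569 genes were called, and 11835 under 0.1.

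Scaling to the leukocyte genes called 19378 genes, 385 higher and 18993 lower, and moved the median log2 fold change of all genes from 0.03 to -1.40, where unscaled library sizes gave -0.14. List medians that turned negative on that scale were those for alternative activation (-0.89), B and plasma cells (-0.97), chemokines (-0.77), cell cycle (-1.42), chemokine receptors (-0.43), complement (-0.45), core macrophage genes (-0.75), MHC class I (-0.95), efferocytosis (-1.14), eicosanoids (-0.58), Fc receptors (-0.57), glycolysis (-1.37), cytokines (-0.60), integrins (-0.67), interferon-stimulated genes (-1.40), iron and heme (-0.79), Langerhans cells (-0.36), lipid-associated genes (-1.10), lysosome (-0.90), matrix (-0.996), migrating dendritic cells (-0.29), growth factor receptors (-0.52), neutrophils (-0.92), resident skin macrophages (-1.21), T, NK and innate lymphoid cells (-0.82), microbial sensing (-1.07) and transcription factors (-1.02). Named genes that turned negative were *Adgre1* (-0.32), *Cd274* (-1.09), *Cd3e* (-1.42), *Csf1r* (-0.49), *Ctss* (-0.56), *Epcam* (-0.92), *Fcer1g* (-0.59), *Fcgr1* (-1.20), *Fcgr3* (-0.55), *Ftl1* (-0.22), *Ifi30* (-0.50), *Il5ra* (-0.58), *Laptm5* (-0.0035), *Lgmn* (-1.26), *Lyve1* (-1.28), *Mertk* (-1.26), *Mki67* (-0.58), *Mrc1* (-0.84), *Retnla* (-0.017), *Rfx5* (-1.34), *Rfxank* (-1.21), *Tyrobp* (-0.23) and *Xcr1* (-1.08). The lists for cell cycle, glycolysis and interferon-stimulated genes, whose medians lie near 0, also turned with DEGES (-0.024, -0.015 and -0.028) and with library size only (-0.11, -0.099 and -0.11), and the neutrophil list with no filter (-0.019). Among genes that were not called, *Cd3e* turned with DEGES (-0.062), library size only (-0.15) and the replicate block (-0.016), *Folr2* with the block (0.013), and *Lgmn*, *Lyve1*, *Mertk* and *Rfx5* with library size only (-0.056, -0.038, -0.077 and -0.076). When 1 library was left out, the medians ranged from -0.16 to 0.18 for interferon-stimulated genes and from -0.029 to 0.084 for the cell cycle. The log2 fold changes then ranged from -0.41 to 0.21 for *Cd3e*, -0.045 to 0.38 for *Fcgr1*, -0.25 to 0.27 for *Folr2*, -0.63 to 0.16 for *Fscn1*, -0.083 to 0.38 for *Lgmn* and -0.19 to 0.45 for *Mertk*. The turns on the leukocyte-gene scale follow from the shift of all genes, whose median there was -1.40. A list median between -1.40 and 0 on that scale is thus above the median of all genes. The causes of the other changes were not tested.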

Other observations

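Genes of Fc receptors, adhesion and microbial sensing were mostly higher with TMM, with list medians that turned negative on the leukocyte-gene scale. Of 10 Fc receptor genes, 7 were called higher in resident-like macrophages and 0 lower (median log2 fold change 0.81, and -0.57 on the leukocyte-gene scale), and 4 were higher on both scales, among them the mast cell genes *Fcer1a* and *Ms4a2*. *Fcrls*, an Fc receptor-like scavenger receptor, had 83.5, 143 and 83.9 CPM in resident-like macrophages and 9.59, 9.86 and 10.6 CPM in early CMDMs, a 10.3-fold difference without overlap. *Fcer2a*, which encodes the low-affinity IgE receptor CD23, had 8.41, 5.16 and 6.36 CPM and 1.30, 0.759 and 1.08 CPM. The IgG receptor gene *Fcgr3* had 362, 353 and 379 CPM and 189.8, 165 and 258 CPM, and its log2 fold change of 0.84 turned to -0.55 on the leukocyte-gene scale. Of 22 integrin and adhesion genes, 13 were higher and 7 lower (median 0.75, and -0.67 on the leukocyte-gene scale). *Itga4* and *Itgb7*, whose products pair as a homing integrin, rose 3.84-fold and 3.80-fold, and *Itgad* rose 8.29-fold, from 8 to 9 counts per early CMDM library to 63 to 88 per resident-like library. *Itga6*, an integrin of basal keratinocytes, was lower, at 31.9, 33.6 and 34.3 CPM against 225, 228 and 181 CPM. Of 23 genes of microbial sensing, 9 were higher and 2 lower (median 0.31, and -1.07 on the leukocyte-gene scale). *Nlrp3*, the inflammasome sensor, rose 3.61-fold and was higher on both scales, while *Tlr2* and *Cd14*, which act together on bacterial lipoproteins, rose 3.27-fold and 3.34-fold with TMM and were not called on the other scale (0.35 and 0.36).

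Genes of lipid and iron handling split. Of 20 genes of lipid-associated macrophages, 9 were higher and 5 lower (median 0.29, and -1.10 on the leukocyte-gene scale). *Apoc1*, an apolipoprotein, had 7.12, 9.52 and 12.7 CPM in resident-like macrophages and 86.8, 120.1 and 89.1 CPM in early CMDMs, and *Fabp5*, a fatty acid carrier that keratinocytes also make, had 159, 140.2 and 219.5 CPM and 365, 332 and 438 CPM. Both were lower on both scales, whereas *Lpl*, the lipoprotein lipase, rose 2.88-fold with TMM. Of 15 iron and heme genes, 11 were higher and 3 lower (median 0.61, and -0.79 on the leukocyte-gene scale). *Slc40a1*, the iron exporter ferroportin, was lower, at 6.58, 2.002 and 3.47 CPM against 10.02, 8.03 and 8.99 CPM, and was not called with no filter (adjusted p = 0.071). Monocyte genes pointed both ways, 9 higher and 10 lower of 23 (median -0.39, and -1.83 on the leukocyte-gene scale). *Spn*, a marker of nonclassical monocytes, was higher on both scales, at 36.2, 36.6 and 32.5 CPM against 7.36, 7.46 and 8.04 CPM, and *Ly6c1*, which endothelial cells also express, was lower, at 21.8, 28.6 and 28.96 CPM against 163, 136 and 119.7 CPM. Of 16 endothelial genes, 0 were called higher and 11 lower (median -1.18, and -2.59 on the leukocyte-gene scale), with *Pecam1* at 42.6 ± 8.86 CPM against 102 ± 1.61 CPM. Among 11 genes of melanocytes, Schwann cells and muscle, 2 were higher and 5 lower (median -0.95, and -2.40 on the leukocyte-gene scale). Lists for B and plasma cells (3 higher and 0 lower of 7) and plasmacytoid dendritic cells (2 higher and 1 lower of 10) had medians of 0.48 and -0.22, which were -0.97 and -1.63 on the leukocyte-gene scale. The part of these other cells in the differences was not tested.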
